A study of Mus musculus with 10 samples.

Results

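Bmp4, the Id genes Id1, Id2 and Id3, the type I receptor gene Bmpr1a and the Smad genes Smad1 and Smad7 were followed in mouse embryonic stem cells (mESCs) that differed in their MMTR/Dmap1 construct. Members were taken by gene symbol. Of these 7 genes, 6 had a probe in the probe annotation used here, with 9 probes in all, and all 9 were among the 17775 probes kept out of 45281 on the array. The kept probes that carried a gene symbol stood for 9401 genes. Smad7, an inhibitory Smad, was not analysed here.

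Bone morphogenetic proteins (BMPs) are secreted ligands that bind a pair of receptor types at the cell surface. The receptors phosphorylate Smad1, which enters the nucleus with Smad4 and switches on target genes, of which the Id genes are the best known. Id proteins lack a DNA-binding region and hold E proteins and other bHLH transcription factors away from DNA, and in mESCs BMP4 acting through Id proteins works beside the cytokine LIF to keep cells from differentiating.

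G-CCE mESCs of 5 lines were each arrayed on 2 days, with 1 library for each line and day, 10 in all. At d3 the cells had been without LIF for 3 days, and at d0 they were kept with 1000 U/ml LIF. By the study's methods, differentiating cells were aggregated in hanging drops and moved to bacterial dishes on day 2, while maintained cells grew on gelatin. The line labelled MMTR KD carried a lentiviral shRNA against MMTR/Dmap1 together with EGFP and was grown from isolated clones. The line labelled MMTR-F carried a plasmid for Flag-tagged full-length MMTR/Dmap1, MMTR-C a plasmid for its C-terminal part and MMTR-N a plasmid for its N-terminal part, each selected with puromycin, and WT was not transfected. With 1 library per line and day, no difference between single libraries had a replicate check. The p-values below were based on how much the day difference varied between lines.

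Signals are given as log2 of the bead signal after quantile normalization, a step that gives all 10 libraries the same distribution of values. Before it, the median signal was 337 to 347 in d3 libraries and 218 to 244 in d0 libraries, so the brightness of the arrays moved with day, and its part in the values was not tested. The probe of Dmap1 read 10.38 in the library labelled MMTR KD against 10.42 in the WT library at d3, and 10.78 against 10.59 at d0. In the libraries labelled MMTR-F it read 10.18 at d3 and 10.48 at d0. Neither line differed from WT as its label says on both days, so directions for these lines are those of the libraries as labelled. In MMTR-C libraries the same probe read 12.00 on both days, and in MMTR-N libraries 10.34 at d3 and 10.52 at d0. Where this probe lies relative to the constructs is not given in the sources used here, so it may not read the MMTR-N construct. Of 8 pluripotent cell marker genes, 5 fell at d3 (limma adjusted p under 0.05), among them Zfp42 by 1.69, while 24.7% of all kept probes fell. Pou5f1 (-0.28), Dppa4 (-0.20) and Utf1 (0.02) did not pass on the probes that stood for them. Of the marker lists of other cell types, 2 of 10 fibroblast, 1 of 8 mesoderm, 2 of 9 extraembryonic endoderm, 2 of 7 neural, 0 of 7 trophoblast and 2 of 7 endothelial and blood genes had a kept probe. The extraembryonic endoderm pair moved in opposite directions, Dab2 by 1.10 and Sox7, detected in 1 of 5 libraries at d3, by -0.86. Their mean log2 signal ran from 8.94 to 9.88 at d3 and from 8.55 to 10.21 at d0. This mean was highest on both days in the library labelled MMTR KD. At d0 Sox7 by itself was highest in MMTR-C, at 10.05 against 9.67 in the library labelled MMTR KD. The part of these marker changes in the values of the BMP genes was not tested. In such bulk samples, fewer cells of a type and less RNA per cell cannot be told apart.

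The first comparison set d3 against d0 and addressed how the BMP genes differed after 3 days of differentiation without LIF. Aggregation, culture surface, time and LIF changed together between the days and cannot be told apart. Bmp4 fell 5.78-fold at d3 and Id1 1.78-fold, whereas Smad1 rose 1.47-fold and Id3 1.24-fold. Id2 and Bmpr1a did not pass the test on the probe that stood for each gene. The test was limma's moderated test with line as a term, and its p-values were adjusted by the Benjamini-Hochberg method over all 17775 probes with a threshold of 0.05. Among the 6 measured genes, 2 fell and 2 rose, while 24.7% of all kept probes fell and 24% rose at d3, so a call by itself was common. The median difference of the 6 genes was -0.12 and that of all kept probes 0.001.

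Bmp4, the ligand gene, lies on chromosome 14. The 250 bases before its transcription start (GRCm38.p6, chr14:46390670-46390919, minus strand, RefSeq) are shown because Bmp4 was the member that moved most. Capitals in this and the following promoter sequences mark GGCGCC, a GC-rich Smad site, and CAGAC or its reverse complement GTCTG, a Smad binding element. Both strands were searched and no matches overlapped.
Bmp4: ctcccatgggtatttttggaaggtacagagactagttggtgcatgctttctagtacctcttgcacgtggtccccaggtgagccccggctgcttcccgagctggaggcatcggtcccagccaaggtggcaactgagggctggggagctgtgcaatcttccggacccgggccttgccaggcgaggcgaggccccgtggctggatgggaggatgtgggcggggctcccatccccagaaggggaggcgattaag
Neither motif occurred in this window. Among the same windows of 32851 RefSeq promoters, 9.59% held GGCGCC and 42.2% held CAGAC on either strand.

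Bmp4 signal was 9.23, 10.45, 10.36, 9.72 and 9.52 at d3, against 11.54, 12.69, 13.33, 12.29 and 12.09 at d0, in the libraries labelled MMTR KD, MMTR-F, MMTR-C, MMTR-N and WT. The days did not overlap, and the lowest d0 library stood 1.10 above the highest d3 library. All 5 d3 libraries lay below all 5 d0 libraries for 13.9% of kept probes. The fitted difference was -2.53 ± 0.10 (SE, 5 lines; limma adjusted p = 8.3e-06). Within lines the difference ran from -2.96 in MMTR-C to -2.24 in the line labelled MMTR-F. Averaged over the 10 libraries, 83.4% of kept probes were dimmer than that of Bmp4, and it was detected at d3 in 5 of 5 libraries.

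**Figure D1:**
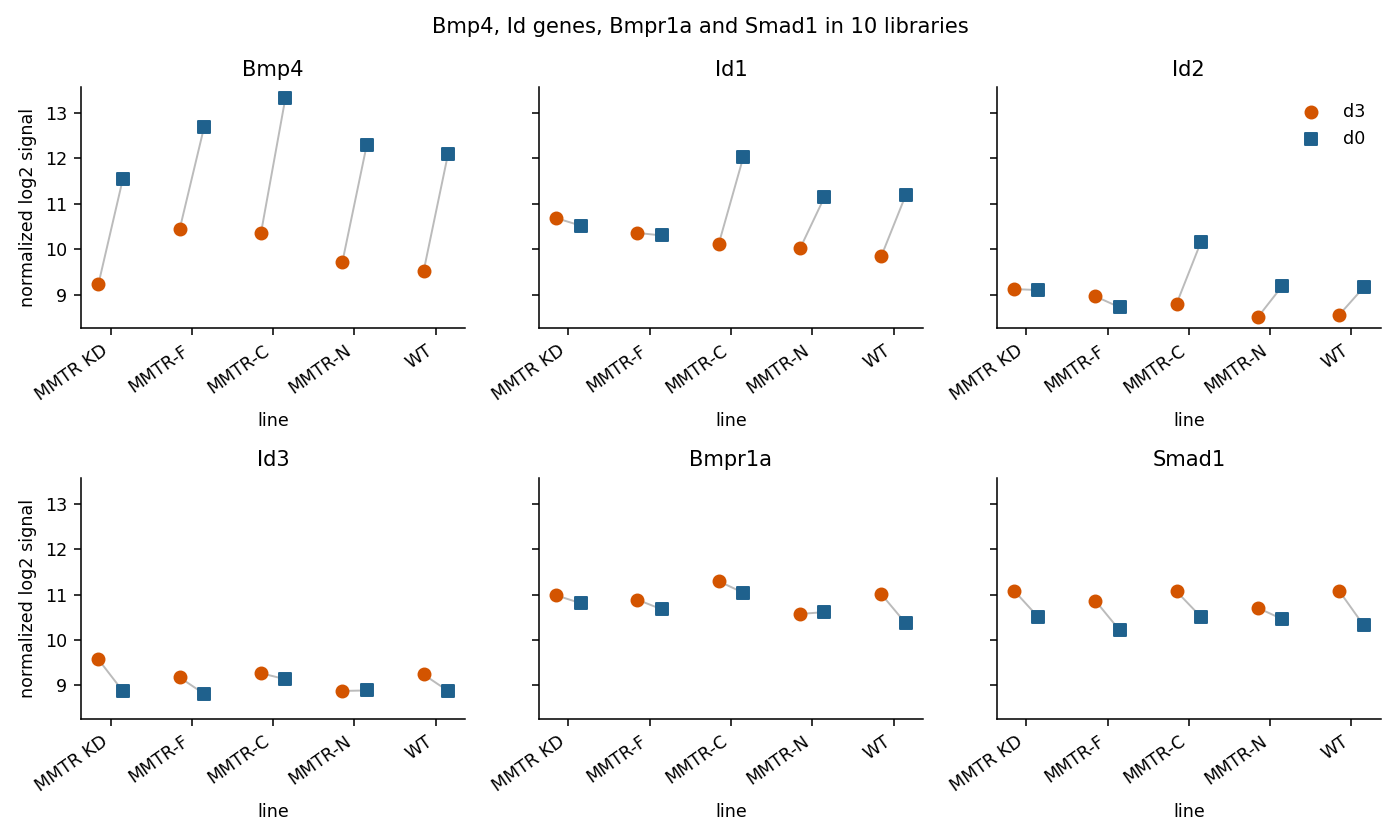
Normalized log2 signal (y axis) of 6 genes in the 5 lines (x axis), with d3 as circles and d0 as squares, 1 library each and a grey line joining the days of a line. Bmp4 is lower at d3 in all 5 lines, with differences of -2.96 to -2.24. Id1 and Id2 are lower in MMTR-C, MMTR-N and WT and nearly level in the lines labelled MMTR KD and MMTR-F. On the other Id2 probe, which is not drawn here, all 5 lines are lower at d3.

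Id1 is a dominant-negative bHLH protein gene on chromosome 2 and a direct target of Smad1. Its signal was 10.69, 10.36, 10.13, 10.02 and 9.86 at d3, against 10.52, 10.31, 12.02, 11.15 and 11.20 at d0, in the libraries labelled MMTR KD, MMTR-F, MMTR-C, MMTR-N and WT. The days overlapped, because the 2 lowest d0 libraries were those labelled MMTR KD and MMTR-F. The fitted difference was -0.83 ± 0.29 (SE, 5 lines; limma adjusted p = 0.043). The lines were not alike in this difference: it was -1.90 in MMTR-C, -1.13 in MMTR-N and -1.34 in WT, but 0.17 in the line labelled MMTR KD and 0.06 in that labelled MMTR-F. With 1 library for each line and day, the difference between lines could not be tested. The limma adjusted p of Id1 was 0.12 without WT, 0.13 without MMTR-C and 0.11 without MMTR-N, so its call rested on these lines, and the sign in the line labelled MMTR-F turned to -0.11 under median scaling.

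Id2, on chromosome 12, encodes an inhibitor of the same class that binds E proteins. Its promoter window (GRCm38.p6, chr12:25096093-25096342, minus strand, RefSeq) and that of Id3 are shown because the Id genes are direct targets of BMP Smads, with motif matches marked as for Bmp4.
Id2: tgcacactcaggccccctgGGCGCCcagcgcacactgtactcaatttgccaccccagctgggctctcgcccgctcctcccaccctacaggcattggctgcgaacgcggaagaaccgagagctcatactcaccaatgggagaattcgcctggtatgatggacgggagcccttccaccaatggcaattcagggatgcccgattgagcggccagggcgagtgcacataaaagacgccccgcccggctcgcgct
The Id2 window held 1 GGCGCC, starting 231 bases before the transcription start, and no CAGAC. A match is a description of the letters only.

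Id2 signal was 9.13, 8.97, 8.81, 8.51 and 8.56 at d3, against 9.11, 8.73, 10.17, 9.20 and 9.16 at d0, in the libraries labelled MMTR KD, MMTR-F, MMTR-C, MMTR-N and WT. The days overlapped, and the fitted difference of -0.48 ± 0.20 (SE, 5 lines) did not pass the test (limma adjusted p = 0.086). It passed without the line labelled MMTR-F (-0.66, adjusted p = 0.031), and over the fits that left out 1 line it ran from -0.66 to -0.26. By line, the order resembled that of Id1. The difference was -1.36 in MMTR-C, -0.69 in MMTR-N and -0.60 in WT, and 0.02 and 0.24 in the lines labelled MMTR KD and MMTR-F. Id1 and Id2 were thus both lower by at least 0.5 at d3 in MMTR-C, MMTR-N and WT and not in the other lines, a pattern described after their values were seen and held by 0.371% of kept probes.

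A second Id2 probe did not show the same split. It read 8.80 at d3 against 9.36 at d0 in the line labelled MMTR KD, and 8.75 against 9.20 in that labelled MMTR-F. In MMTR-C it read 8.53 at d3 against 10.03 at d0, and in MMTR-N 8.48 against 8.79. In WT it was 9.03 at d0 and not detected at d3, which made WT at least 1.72-fold lower at d3 (the bound takes the higher of the undetected signal and the dimmest detected signal of that library). On this probe Id2 was lower at d3 in 5 of 5 lines, by -0.72 ± 0.16 (SE; limma adjusted p = 0.0061), with -0.56 in the line labelled MMTR KD and -0.45 in that labelled MMTR-F. The smallest fall on this probe was in MMTR-N, at -0.305. The probes of Id2 therefore disagreed in the lines labelled MMTR KD and MMTR-F, and on the second probe MMTR-N did not fall by 0.5.

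Id3, on chromosome 4, encodes the third Id protein measured. Its promoter window (GRCm38.p6, chr4:136143572-136143821, plus strand, RefSeq) is shown for comparison with that of Id2.
Id3: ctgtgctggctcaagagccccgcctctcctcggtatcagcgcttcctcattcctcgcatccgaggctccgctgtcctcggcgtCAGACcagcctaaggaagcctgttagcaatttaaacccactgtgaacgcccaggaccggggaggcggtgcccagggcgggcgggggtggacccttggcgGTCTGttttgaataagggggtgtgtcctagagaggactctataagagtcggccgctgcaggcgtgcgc
It held CAGAC starting 167 bases and GTCTG starting 68 bases before the transcription start, and no GGCGCC. Id3 signal was 9.57, 9.18, 9.27, 8.88 and 9.24 at d3, against 8.88, 8.82, 9.14, 8.89 and 8.88 at d0, in the libraries labelled MMTR KD, MMTR-F, MMTR-C, MMTR-N and WT. It was higher at d3 in 4 of 5 lines, with MMTR-N level at -0.01. The fitted rise was 0.31 ± 0.10 (SE, 5 lines; limma adjusted p = 0.03), and the days overlapped. The largest difference, 0.70, was in the line labelled MMTR KD, and the adjusted p was 0.075 without WT, 0.077 without the line labelled MMTR KD and 0.077 without that labelled MMTR-F.

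**Figure D2:**
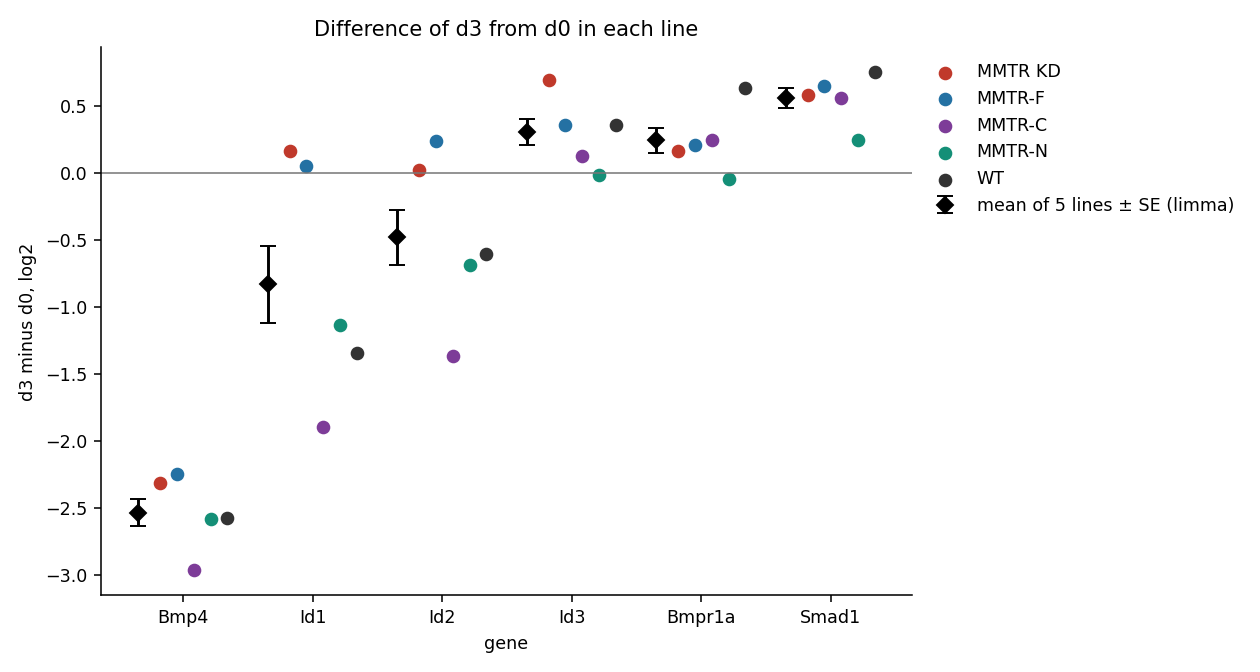
Difference of d3 from d0 on the log2 scale (y axis) for 6 genes (x axis), with 1 coloured point per line and a black diamond for the limma estimate ± SE over the 5 lines. Bmp4 points cluster between -2.96 and -2.24, while Id1 points spread from -1.90 to 0.17.

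The receptor gene Bmpr1a, on chromosome 14, encodes the type I receptor that BMP4 binds. Its signal was 10.98, 10.89, 11.29, 10.57 and 11.01 at d3, against 10.81, 10.67, 11.04, 10.62 and 10.37 at d0, in the libraries labelled MMTR KD, MMTR-F, MMTR-C, MMTR-N and WT. The difference of 0.25 ± 0.09 (SE, 5 lines) did not pass the test (limma adjusted p = 0.053), nor did that of its second probe, 0.07 (adjusted p = 0.49). The days overlapped on both probes, and WT had the largest difference on each, 0.64 and 0.35. With 1 line left out, the difference on the first probe ran from 0.15 to 0.32, and it passed without MMTR-N (adjusted p = 0.025).

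Smad1, on chromosome 8, encodes the Smad that BMP receptors phosphorylate. Its signal was 11.09, 10.87, 11.07, 10.71 and 11.08 at d3, against 10.50, 10.21, 10.51, 10.46 and 10.33 at d0, in the libraries labelled MMTR KD, MMTR-F, MMTR-C, MMTR-N and WT. Every d3 library was above every d0 library, as for 12.5% of kept probes. The rise was 0.56 ± 0.08 (SE, 5 lines; limma adjusted p = 7e-04), smallest in MMTR-N at 0.25. A second Smad1 probe gave 0.07 ± 0.06 (SE; adjusted p = 0.37), with overlapping days and a difference of -0.11 in MMTR-C. The rise of Smad1 thus rested on 1 of its 2 probes, and which transcripts each probe reads was not tested.

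Counted line by line at a difference of 0.5 or more between the days, Bmp4 was lower at d3 in all 5 lines. Id1 and Id2 were lower as well in MMTR-C, MMTR-N and WT. On its second probe Id2 was as much lower in MMTR-C, WT and the line labelled MMTR KD, and not in MMTR-N or that labelled MMTR-F. The share of kept probes as much lower was 8.01% in the line labelled MMTR KD, 6.5% in that labelled MMTR-F, 8.46% in MMTR-N, 8.76% in MMTR-C and 8.75% in WT. Smad1 was higher at d3 in every line but MMTR-N, Id3 in the line labelled MMTR KD alone and Bmpr1a in WT alone. The share of kept probes as much higher was 8.56% in the line labelled MMTR KD, 6.85% in that labelled MMTR-F, 8.93% in MMTR-N, 9.42% in MMTR-C and 9.31% in WT.

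**Figure D3:**
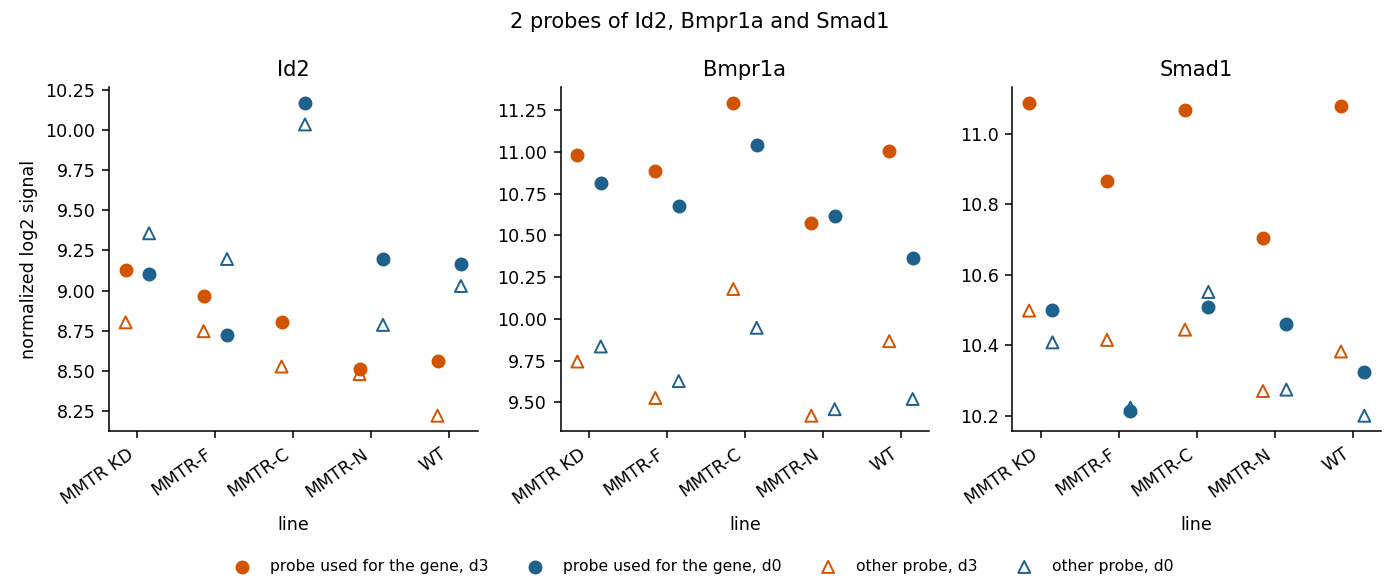
Normalized log2 signal (y axis, a separate scale per gene) of the 2 probes of Id2, Bmpr1a and Smad1 in the 5 lines (x axis), with filled circles for the probe used for the gene, open triangles for the other probe, orange for d3 and blue for d0; the Id2 triangle of WT at d3 was not detected. On the filled circles Smad1 is higher at d3 by 0.25 to 0.75, and on the triangles by -0.11 to 0.19.

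The second comparison set each line against WT and asked whether MMTR/Dmap1 constructs went with other levels of BMP genes. Over both days, none of the 24 tests of 6 genes in 4 lines passed in limma (adjusted p under 0.05). These tests took the 2 days of a line as its repeats, so they did not measure the spread between independently made lines. Unadjusted, 4 of the 24 had p under 0.05. They were Bmpr1a in MMTR-C, and Bmp4 in MMTR-C and in the lines labelled MMTR KD and MMTR-F. Of all kept probes, 1.58% were called higher and 1.73% lower for the line labelled MMTR KD, 0.0225% higher and 0.0225% lower for that labelled MMTR-F, 0.00563% higher and 0.0113% lower for MMTR-C, and 0.0506% higher and 0.0225% lower for MMTR-N.

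Bmp4 had the widest spread between lines, and its order was nearly the same on both days. The lines labelled MMTR-F and MMTR-C were highest, followed by MMTR-N, WT and the line labelled MMTR KD, and only the highest 2 changed places between d3 and d0. Over both days the difference from WT was 1.04 in MMTR-C (limma adjusted p = 0.17) and 0.76 in the line labelled MMTR-F (adjusted p = 0.092). It was 0.20 in MMTR-N (adjusted p = 0.61) and -0.42 in the line labelled MMTR KD (adjusted p = 0.2), each ± 0.16 (SE). The p-values were adjusted within each line separately, so the adjusted values do not rank the lines. Unadjusted, the limma p was 0.00018 in MMTR-C and 0.00139 in the line labelled MMTR-F. Neighbours in this order that lay within the residual SD of 0.16 were MMTR-F and MMTR-C at d3. MMTR-N and WT lay just outside it, at 0.19 apart at d3 and 0.20 at d0. A difference between 2 libraries varies more than 1 library does, so this pair was not separated either.

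The Id genes had another order. At d3, Id1 stood 0.83 above WT in the library labelled MMTR KD and 0.51 above it in that labelled MMTR-F, while at d0 its differences from WT were -0.67 and -0.89 in these lines. Id2 differed from WT by 0.57 in the library labelled MMTR KD at d3 and by -0.06 at d0. On the second Id2 probe this line was above WT on both days. It was at least 1.47-fold higher at d3, where WT was not detected, and 0.33 higher at d0. At d3 the library labelled MMTR KD was the highest of 5 for Id1, Id2, Id3 and Smad1, as it was for 21.7% of kept probes. For Smad1 it exceeded WT by only 0.01. The spread between lines was 0.83 for Id1 and 0.62 for Id2 at d3, against 1.72 and 1.44 at d0, with a residual SD of 0.46 for Id1 and 0.32 for Id2. At d3 no 2 neighbouring lines differed by more than this for either gene.

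At d0 the MMTR-C library was the highest of 5 for all 6 genes, a position it held for 17.7% of kept probes. For Smad1 it read 10.51 against 10.50 in the library labelled MMTR KD, within the residual SD of 0.12. The MMTR-C library exceeded WT by 1.23 for Bmp4, 0.82 for Id1, 1.00 for Id2, 0.26 for Id3, 0.68 for Bmpr1a and 0.18 for Smad1. Bmp4 was thus 2.35-fold and Id2 2.01-fold higher in MMTR-C than in WT at d0. At d3 the same line exceeded WT by 0.84 for Bmp4, 0.27 for Id1 and 0.25 for Id2. The MMTR-N library differed from WT by less than 0.5 for every gene on both days. All these differences share 1 WT library per day.

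Counted at a difference of 0.5 or more from WT at d3, the library labelled MMTR KD was higher for Id1 and Id2 (3.37% of kept probes) and that labelled MMTR-F for Bmp4 and Id1 (4.28%). MMTR-C was higher for Bmp4 (0.703%) and MMTR-N for no member (4.99%). No member was as much lower at d3 in any of the 4 lines, against 2.85% of kept probes in the line labelled MMTR KD, 2.86% in that labelled MMTR-F, 3.36% in MMTR-N and 0.287% in MMTR-C. At d0 the library labelled MMTR KD was lower for Bmp4 and Id1 (4.88%) and higher for no member (4.76%), and that labelled MMTR-F was higher for Bmp4 (2.69%) and lower for Id1 (2.5%). MMTR-C was higher for Bmp4, Id1, Id2 and Bmpr1a (2.87%) and lower for no member (1.92%), and MMTR-N was neither higher (2.03%) nor lower (1.2%) for any. On its second probe Bmpr1a stood 0.43 above WT in MMTR-C at d0, below the size counted here.

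**Figure D4:**
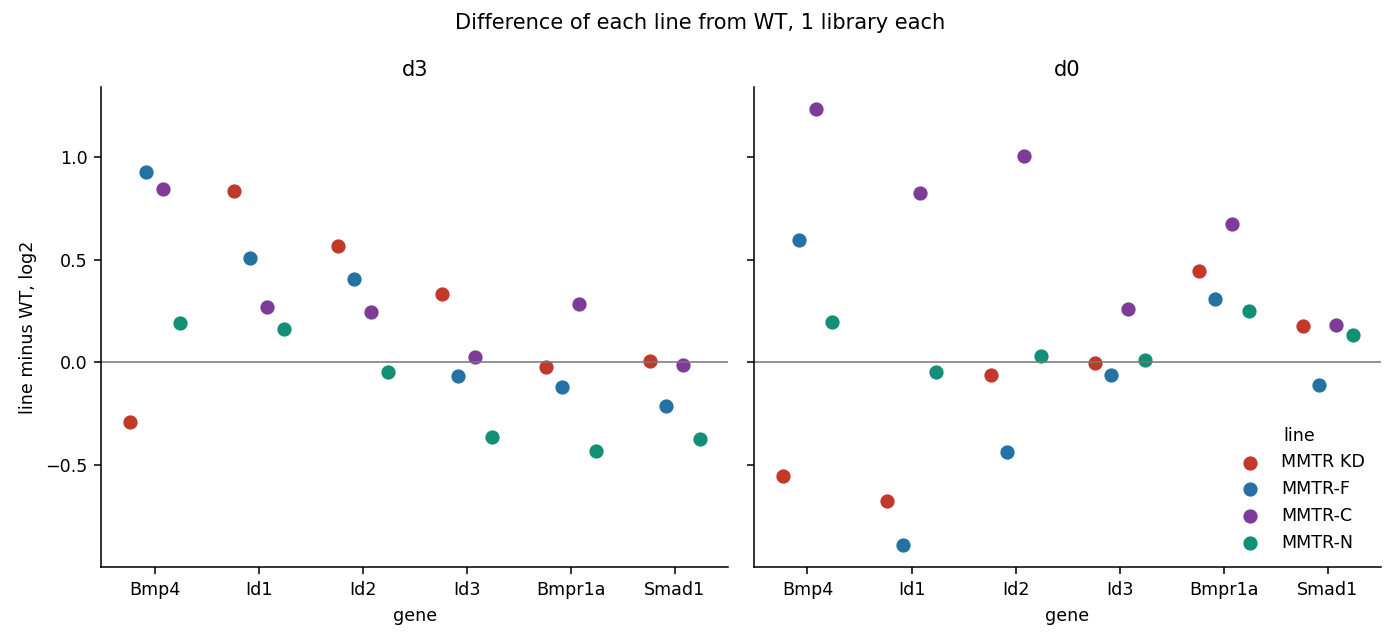
Difference of each line from WT on the log2 scale (y axis) for 6 genes (x axis) at d3 (left) and d0 (right), with 1 library per point. MMTR-C points are the highest at d0 for every gene, up to 1.23 for Bmp4. For Smad1 the MMTR-C point (0.183) is nearly level with that of the line labelled MMTR KD (0.176). Id1 in the lines labelled MMTR KD and MMTR-F is above WT at d3 and below it at d0.

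Smad1 in the line labelled MMTR KD lay above the median of its chromosome. The median difference of the 812 other chromosome 8 probes from WT was -0.30 in this line over both days, against 0.01 for probes of other chromosomes. Smad1 was 0.09 above WT (limma adjusted p = 0.73) and so 0.39 above its chromosome's median, and 95% of the chromosome's probes had a lower difference. At d3 alone the Smad1 difference was 0.01 and 87.9% were lower, and at d0 it was 0.18 and 95.4% were lower. Under median scaling the Smad1 difference from WT over both days turned to -0.04, and the chromosome's median was not taken there.

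The genes most like each member were found by Pearson's r over the 10 libraries after each day's mean was taken off, among 14272 named probes. They were Slc45a4 (r = 0.955), Bbs10 (0.953) and Tmsb10 (0.947) for Bmp4. For Id1 they were Osbp (0.927), Coa7 (0.894) and Commd4 (0.875), and for Id2 Sigirr (0.931), Gga2 (0.926) and Osbp (0.922), so that Osbp was named for both. They were Srrd (0.968), Gins1 (0.944) and Ubap2l (0.936) for Id3, Scyl3 (0.965), Sema4a (0.955) and Prmt5 (0.955) for Bmpr1a, and Mad2l1bp (0.931), Fbxw4 (0.923) and Rela (0.921) for Smad1. No other BMP pathway gene was among them. The points share libraries and are not independent. Each r is among the highest of 14272 over only 10 libraries, so shared regulation cannot be read from it. Id1 and Id2 themselves had r = 0.942 at d3 and 0.932 at d0, so a gene like both is no separate finding.

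The other genes of the pathway and its bHLH partners were read from d3 against d0 in the same fit. Of 87 such genes, 37 had a kept probe, of which 14 rose, 9 fell and 14 did not pass the test, with a median difference of 0.14. Acvr2a, counted among those that rose, passed the filter only through d3. By direction, 37.8% of the 37 rose against 24% of all kept probes, and 24.3% fell against 24.7%. In either direction 48.7% of all kept probes were called, and no test of the list was made.

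Of the ligand genes, Bmp7 and Bmp8a alone had a kept probe out of 13, and Bmp8a fell by 0.19, with detection in 2 of 5 libraries at d3 and 4 of 5 at d0. Among antagonists, which bind ligands outside the cell, 2 of 4 rose and 1 fell. Fst, the gene of follistatin, which binds activins and BMPs, read 10.54, 9.25, 8.94, 9.74 and 8.97 at d3, in the libraries labelled MMTR KD, MMTR-F, MMTR-C, MMTR-N and WT. At d0 it read 8.61, 8.28, 8.34 and 8.33 in the libraries labelled MMTR KD, MMTR-C, MMTR-N and WT and was not detected in that labelled MMTR-F. It rose by 1.15 ± 0.18 (SE, 5 lines; limma adjusted p = 0.0013) without overlap of the days, and at d3 it was 2.97-fold higher in the library labelled MMTR KD than in WT. Twsg1, an extracellular BMP modulator gene, rose by 0.75, and Chrd, the gene of the BMP antagonist chordin, fell by 0.24.

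Of 7 receptor and co-receptor genes measured, 3 rose and 1 fell. Acvr2b, a type II receptor gene, rose by 0.88, Bmpr2, the BMP type II receptor gene, by 0.39, while Eng, the gene of the co-receptor endoglin, fell by 0.41 and was detected in 3 of 5 libraries at d3. Acvr2a, another type II receptor gene, was detected in 5 of 5 libraries at d3 and in 0 of 5 at d0, and so passed the filter only through d3. It was at least 1.1-fold higher at d3. Its limma call, counted among the 3 that rose, set signal against libraries without detection and is no support for a rise. Of 3 further Smad genes only Smad3, which acts downstream of activin and TGF-β, passed, with a rise of 0.55. Its other probe rose by 0.52 (limma adjusted p = 0.00033). Among 10 intracellular inhibitors, 2 rose and 1 fell. Ctdsp1 did not pass on the probe that stood for it (0.26, limma adjusted p = 0.073) but rose by 0.57 on its other probe (limma adjusted p = 0.0013). Skil, the gene of the Smad corepressor SnoN, rose by 1.20 and by 0.38 on its other probe, Ppm1a, the gene of a phosphatase of Smads, by 0.27, and Tob1 fell by 0.53. Ctdsp2, a small phosphatase gene, did not pass the day test but was 2.31-fold higher in MMTR-C than in WT at d0.

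All 4 other BMP target genes with a kept probe passed, 2 in each direction. Msx1, a homeobox gene, rose by 0.89 and Hey1, a bHLH repressor gene, by 0.63. Id4, the remaining Id gene, fell by 0.62 ± 0.16 (SE, 5 lines; limma adjusted p = 0.015). At d3 it was not detected in the libraries labelled MMTR KD, MMTR-C and WT and read 8.33 and 8.39 in those labelled MMTR-F and MMTR-N. At d0 it read 8.53 to 9.42 and was highest in MMTR-C, with WT at 8.54. Gata2 fell by 0.46 and was 2.05-fold higher in MMTR-N than in WT at d0.

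The partners that Id proteins bind moved both ways. Of the 3 E protein genes, Tcf3 and Tcf12 rose by 0.34 and 0.31, and Tcf4 fell by 0.24. A second Tcf3 probe differed by 0.09 and did not pass (limma adjusted p = 0.36). Of 4 tissue-restricted bHLH genes measured, Hes6 rose by 1.06 and Twist1 by 0.46, while Hes1 fell by 0.33 and Olig1 by 0.21. Olig1 was detected in 2 of 5 libraries at d3. The other Hes6 probes gave 0.31, which passed, and 0.19, which did not (limma adjusted p = 0.11).

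Of these 23 calls, 9 were lost in at least 1 alternative that tested them. A call whose probe an alternative left out was not counted as lost. The other-probe alternative was run for the members only, so second probes such as that of Tcf3, given above, did not enter this count. Among probes detected on all 10 arrays, 15 of the other pathway genes passed, against 23. That setting left out Fst, Id4 and Eng, among others, because each was not detected in some library. Under median scaling Bmp8a was -0.003, Olig1 -0.006, Ppm1a 0.029, Chrd -0.14, Bmpr2 0.23 and Gata2 -0.39, and none of these passed. With RMA background Ppm1a (0.29), Hes1 (-0.49) and Tcf4 (-0.26) were lost. With 1 line left out, 8 calls were lost at least once. Bmpr2 (0.34) and Smad3 (0.46) were lost without WT. Bmp8a was kept only without the line labelled MMTR-F, Olig1 only without MMTR-N, and Chrd and Tcf4 only without WT. Gata2 and Hes1 were kept only without WT and without the line labelled MMTR-F. Over these fits Bmp8a ran from -0.24 to -0.15, Olig1 from -0.26 to -0.16, Chrd from -0.31 to -0.17 and Tcf4 from -0.31 to -0.18. Gata2 ran from -0.58 to -0.29 and Hes1 from -0.40 to -0.20.

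**Figure D5:**
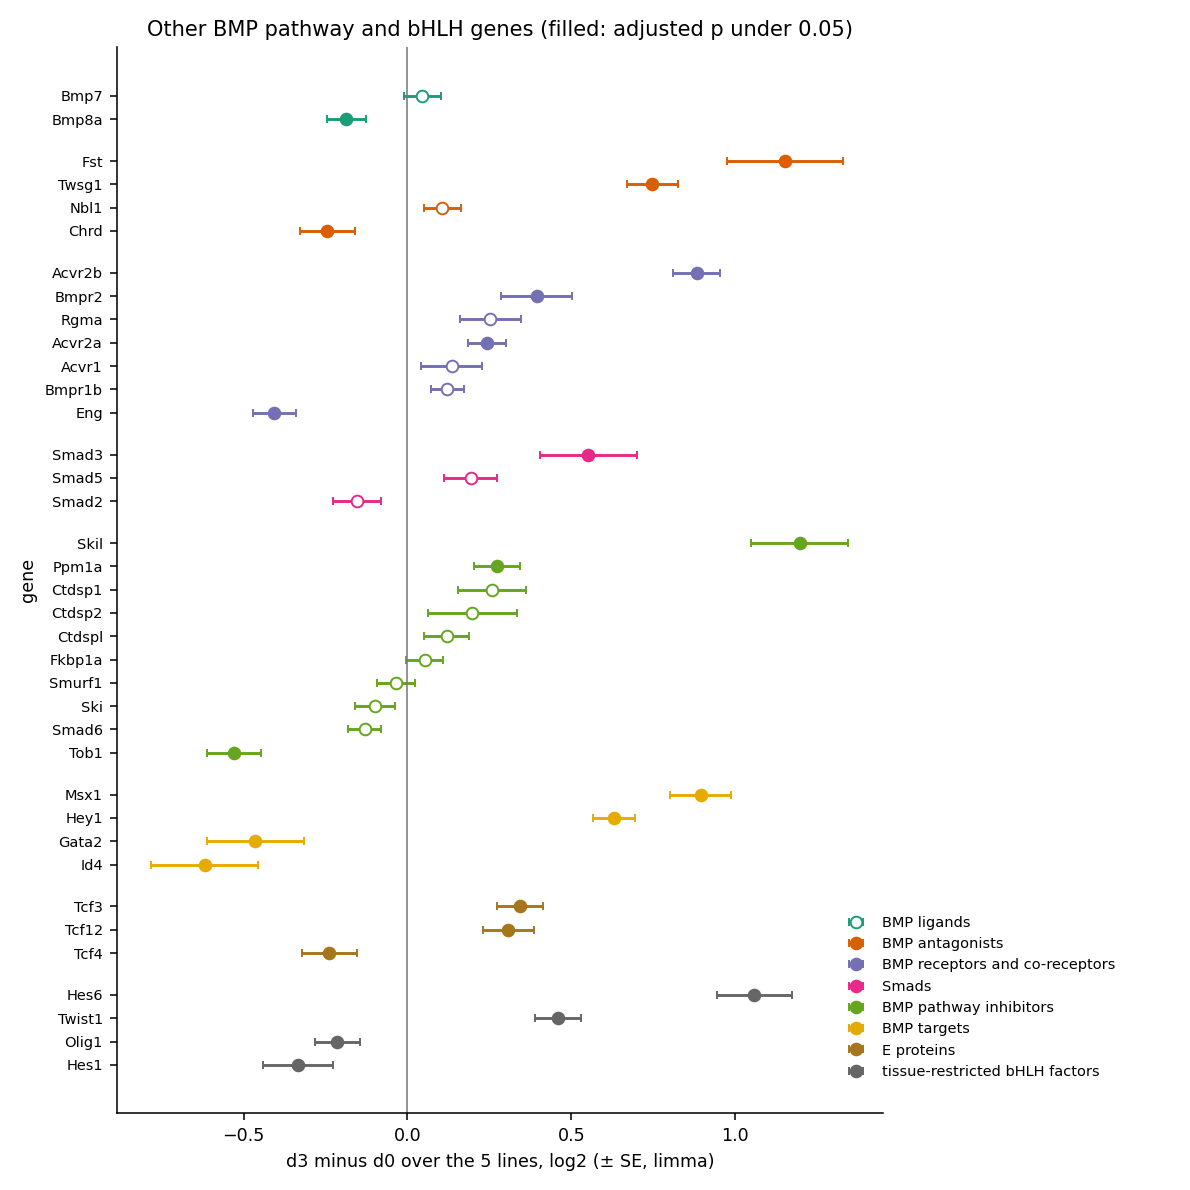
Difference of d3 from d0 over the 5 lines on the log2 scale (x axis, limma estimate ± SE) for 37 other BMP pathway and bHLH genes (y axis), coloured by list, with filled points where the adjusted p was under 0.05. Skil, Fst and Hes6 lie furthest right, at 1.20, 1.15 and 1.06, and Id4 furthest left, at -0.62.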

How the data were processed

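RNA of 10 libraries was hybridised by the authors to Illumina Mouse WG-6 v2 bead arrays and, per the labels, read with BeadStudio 3.2 and lumi. The deposited table gave signal intensity, not normalized, and a detection p-value per probe. The deposited log2 table of 16652 probes, an alternative here, matched quantile-normalized log2 signals to within 0.044. Probes with detection p at or under 0.05 on at least 5 arrays were kept, quantile normalized as log2 and fitted in limma 3.58.1 (R 4.3.3) with line and day as terms, leaving 4 residual degrees of freedom. The number of arrays limits the precision. Single-library differences were counted at 0.5. The series text speaks of duplicated profiles, whereas 1 column per line and day was used here. Symbols came from the platform annotation (14281 probes with 1 symbol; 7 with several were not named), chromosomes and promoters from RefSeq (GRCm38.p6; promoters for 5 of 7 members).

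Members and gene lists were chosen with earlier results of these data known. The probe of highest mean signal stood for a gene. From each list the 3 genes with the largest change that passed are named, and any that differed from WT by 1 or more on a day; the genes most like a member are the 3 of highest r. Acvr2a and Olig1 were added after their values were seen. In simulated data over 17775 probes, 93.3% of changes of 0.5 between d3 and d0 were called, and 44.1% of those between MMTR-C and WT. The simulated noise was independent and the number of changed probes was set, so these shares need not hold for the tests here. Of simulated MMTR-C changes of 1, 100% were called, whereas Bmp4, at 1.04 in MMTR-C, did not pass (limma adjusted p = 0.17). Alternatives covered background, scaling, filter, source table, variance prior, line term, each line left out, the methods' t-test, control library, threshold, probe and chromosome. The probe alternative was run for the members only.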

Additional observations from a re-analysis of the deposited data

Results flagged for a closer look

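Id3 in the MMTR-C library at d0, at 9.14, lay far from the other d0 libraries, which read 8.82 to 8.89. The gap was 0.768 of the whole range, and of 18 sets of 5 libraries examined for the 9 probes this was the single one past Dixon's 95% critical value, where chance flags about 1 in 20.

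Id1 differed from WT in opposite directions on the 2 days in the lines labelled MMTR KD and MMTR-F. In the line labelled MMTR KD the difference from WT was 0.83 at d3 and -0.67 at d0, and in that labelled MMTR-F it was 0.51 at d3 and -0.89 at d0. With 1 library for each line and day, this difference between days was not tested, and both lines share the WT libraries.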

How the results depend on the processing

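Bmp4 (-3.09 to -2.53) passed the day test in every alternative run, and in 5 of 5 fits that left out a line. Id1 was lost with RMA background (-1.03, adjusted p = 0.066), without a filter (0.057) and by the methods' t-test after adjustment (0.085), and Id3 without the line term (0.051) and by that t-test (0.089); RMA background gave Id3 a difference of 0.71 in place of 0.31. Id2 passed on its second probe and without the line labelled MMTR-F, Bmpr1a without MMTR-N, and Smad1 was lost only on its second probe. The number of genes that passed was 2 of 6 by that t-test and 2 to 4 with a line left out, lowest without WT. Line, as a term of the fit, paired the 2 days.

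The count of members that differed from WT by 0.5 or more on a day was 22 with RMA background, against 13. Single-library counts over all probes were 42152 (d3 against d0) and 40297 (line against WT) with RMA and 24016 and 15258 with normexp, against 14851 and 8100. At a threshold of 1 they were 3378 and 933, and those of members, a choice made after seeing the data, were 9 and 2. Of the other pathway genes 15 passed among probes detected on all arrays, against 23. Smad1 in the line labelled MMTR KD was 0.39 relative to its chromosome, and relative to WT it was -0.039 under median scaling. Among line differences over both days that were not called, sign turned for Id2 in the line labelled MMTR-F (0.071 with RMA, 0.35 on the other probe), Id1 in that labelled MMTR KD (-0.075 under median scaling), Id2 in MMTR-N (0.025 under median scaling, 0.008 on the other probe), and Bmpr1a (-0.12) and Smad1 (0.028) on the other probe in that labelled MMTR-F. The day difference of Smad1 in MMTR-C was -0.11 on the other probe. The cause of these shifts was not tested. With RMA background the day difference of 15 of 23 other pathway genes that passed was over 1.5 times as large, among them Fst (3.26 against 1.15), Msx1 (2.85 against 0.89) and Id4 (-2.25 against -0.62).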
